A study of Homo sapiens with 6 samples.

Results

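The genes described here are the CEP genes, named for centrosomal proteins, and the HAUS genes, which encode the subunits of the augmin complex. They were taken as every gene whose annotated symbol is CEP or HAUS followed by a digit, which gave 45 of the 19775 genes on the array: 38 CEP genes and 7 HAUS genes. Of the CEP genes, 35 were protein-coding and 3 were not, namely the divergent transcripts CEP72-DT and CEP83-DT and the pseudogene CEP192P1. RNA came from LNCaP, an androgen-responsive line of human prostate cancer cells, after small interfering RNA (siRNA) against the non-coding RNA PCARNEQ (siPCARNEQ, 3 arrays) or against EGFP, which has no counterpart in human cells and serves as the control (siEGFP, 3 arrays). No siRNA sequence, dose or time of harvest was found in the labels, which name no separate cultures either, and the level of PCARNEQ itself was not analysed here. Each gene was read from 1 probe set, the one with the highest mean log2 intensity over all 6 arrays among those paired with that gene alone. Members were thus chosen by symbol and their probe sets selected on mean intensity, which is given as a description, while the rule itself uses no difference between the groups.

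The centrosome is built around a pair of centrioles and organises the microtubules of the cell. CEP proteins take part in copying the centrioles, in the linker that joins them, in the appendages that dock a centriole at the membrane to grow a cilium, and in the midbody at the end of cell division. Augmin binds spindle microtubules and brings the gamma-tubulin ring complex to them, so that new microtubules branch from existing ones during mitosis.

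More genes fell than rose in both families in siPCARNEQ cells. Of the 7 HAUS genes, 5 fell and 0 rose, and of the 38 CEP genes, 17 fell and 4 rose, where a call needed a limma p below 0.05 after Benjamini-Hochberg adjustment over all genes. Among all genes tested, 12.3% fell and 15.2% rose. The falls thus took 71.4% of HAUS genes and 44.7% of CEP genes, and the rises 0 HAUS genes (limma, also 0 before adjustment at p below 0.05) and 10.5% of CEP genes. At least 2-fold falls were found for HAUS6 and for 2 CEP genes, CEP68 and CEP135, against 2.14% of all genes. The median log2 change, siPCARNEQ minus siEGFP, was -0.52 for HAUS genes and -0.27 for CEP genes, against -0.01 for all genes. The difference between the families was not tested. Probe sets under the array median of 7.03 log2 units may be at background, and in the fit restricted to genes above it 5 of 7 HAUS genes and 17 of 32 CEP genes fell, where 19.4% of all genes did. In these bulk samples, fewer dividing cells and less of a transcript per cell cannot be told apart.

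**Figure D1:**
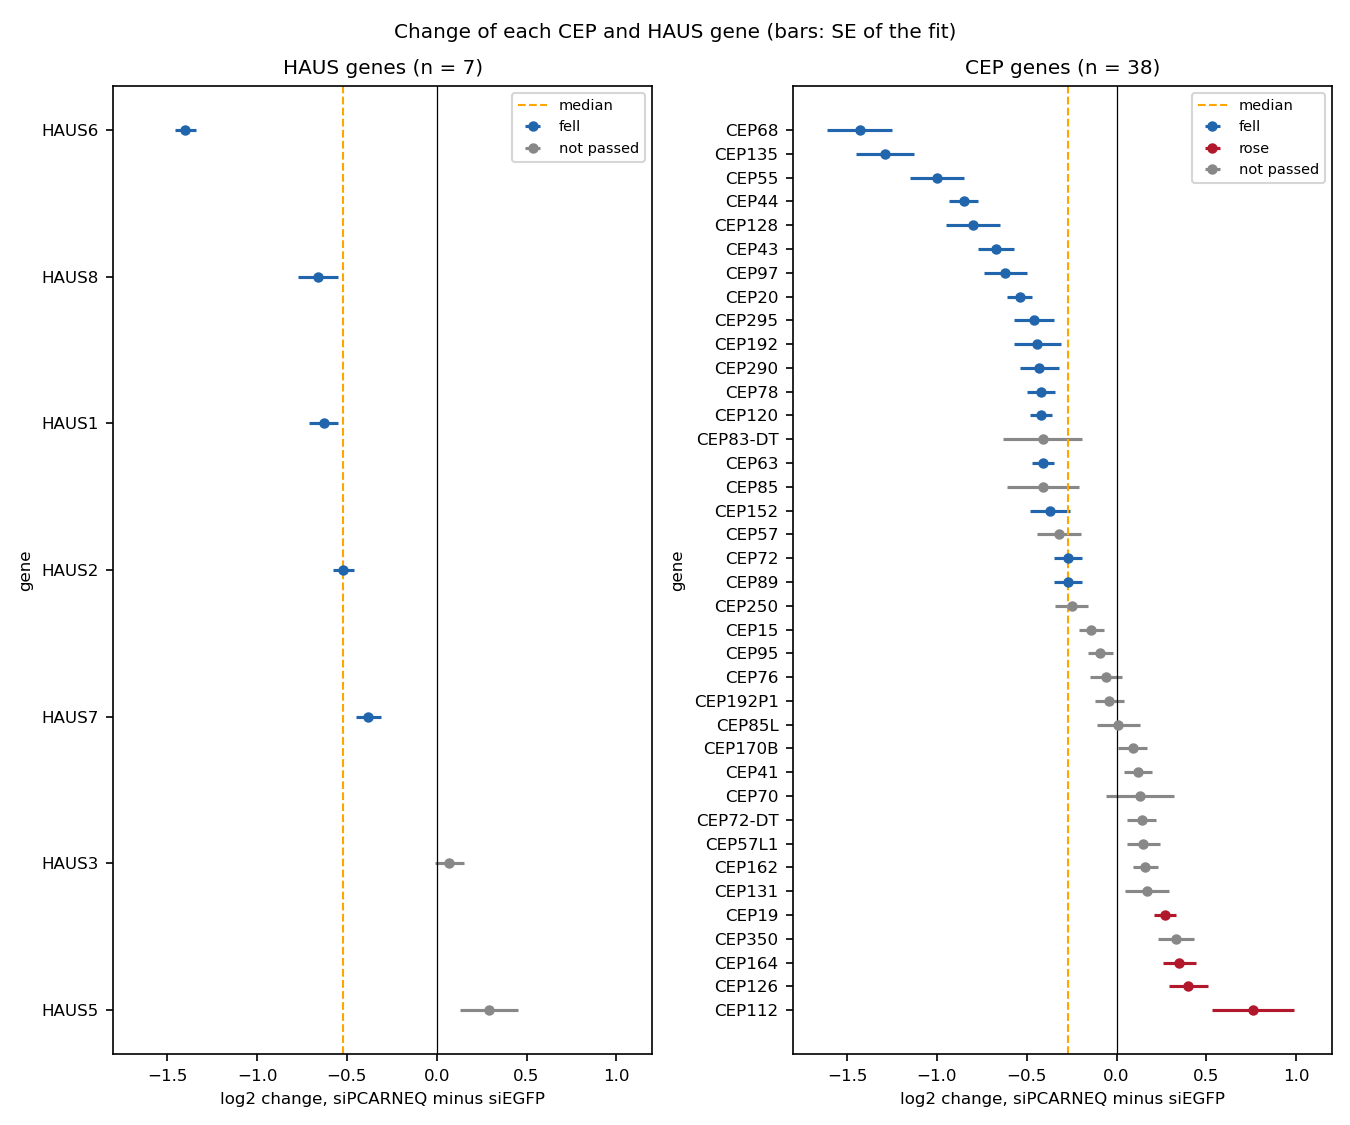
Log2 change (siPCARNEQ minus siEGFP) of each of the 7 HAUS genes and 38 CEP genes, 3 arrays per group. Points are fitted changes, bars their SE, blue marks genes that fell, red genes that rose and grey genes that did not pass, and the dashed lines mark the medians of -0.52 and -0.27.

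Array 1 stood apart from arrays 2 and 3 in both groups. Arrays 2 and 3 differed from each other with an SD over probe sets of 0.136 log2 units in siPCARNEQ and 0.129 in siEGFP, and array 1 differed from them with SDs of 0.371 to 0.373 in siPCARNEQ and 0.232 to 0.239 in siEGFP. The excess of the ACTB 3' control probe set over the 5' one, which grows as RNA degrades, came to 1.84 log2 units on siPCARNEQ array 1, to 0.68 and 0.69 on the other siPCARNEQ arrays and to 0.63 to 0.78 on the siEGFP arrays. All 8 measured luminal prostate markers lay above the array median on every array, and 6 of them rose (summed log2 intensity 15.90 to 15.97 in siPCARNEQ and 15.23 to 15.36 in siEGFP arrays). Of 5 fibroblast markers, COL1A1 and LUM rose, with a summed log2 intensity of 10.99 to 11.32 in siPCARNEQ and 10.20 to 10.23 in siEGFP arrays, and COL1A2 and COL3A1 stayed below the array median. Of 3 neuroendocrine markers ENO2 rose (summed level 9.50 to 10.08 against 9.08 to 9.33) and CHGA lay below the array median. Of 3 basal markers KRT14 rose, and none was above the median on every array (summed level 8.02 to 8.15 against 7.86 to 7.98). The summed level of 5 immune and endothelial markers was 9.22 to 9.31 in siPCARNEQ and 9.23 to 9.40 in siEGFP arrays. The part of these shifts in the CEP and HAUS results was not tested.

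With array 1 of both groups left out, 5 HAUS genes and 19 CEP genes fell and 8 CEP genes rose, where 18.8% of all genes fell and 22.8% rose. With arrays 2 and 3 averaged as 1 replicate, 4 HAUS genes and 6 CEP genes fell and 0 CEP genes rose (limma, 4 before adjustment at p below 0.05), where 5.26% of all genes fell and 6.05% rose. The CEP counts also depended on single arrays. Without siPCARNEQ array 3, siEGFP array 2 or siEGFP array 3, 11 CEP genes fell, against 9.73%, 8.39% and 8.38% of all genes. Without siPCARNEQ array 2, 12 CEP genes fell, against 10.1%. Without siPCARNEQ array 2 or 3 or siEGFP array 2, 0 CEP genes rose (limma, 4 to 6 before adjustment at p below 0.05), against 12.6%, 11.8% and 10.3% of all genes, and without siEGFP array 3 only CEP164, chosen here after its values were seen, did, against 10.4%. Every array left out in turn gave 5 fallen HAUS genes, where 8.38% to 14.5% of all genes fell.

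HAUS6, the augmin subunit that contacts the gamma-tubulin ring complex, had the largest fall among HAUS genes. Its log2 intensity was 9.54, 9.55 and 9.56 in siPCARNEQ arrays 1 to 3, against 10.98, 10.90 and 10.97 in siEGFP arrays 1 to 3. The siPCARNEQ values thus lay within 0.02 of each other and far below every siEGFP value. The log2 change was -1.40 (SE 0.06, limma adjusted p = 3.12e-05), which left 37.9% of the siEGFP level. The other HAUS6 probe sets fell too, with changes of -1.54 (233655_s_at, SE 0.22) and -1.88 (218602_s_at, SE 0.19).

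HAUS8 is the subunit through which augmin holds on to the microtubule. It had 7.85, 8.14 and 8.07 log2 units in siPCARNEQ arrays, against 8.51, 8.74 and 8.80 in siEGFP arrays. Array 1 was the lowest of its group on both sides, and the groups did not overlap. The change was -0.66 (SE 0.11, limma adjusted p = 0.00382).

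HAUS1 had 11.37, 11.54 and 11.54 log2 units in siPCARNEQ arrays and 12.13, 12.05 and 12.17 in siEGFP arrays, a change of -0.63 (SE 0.08, limma adjusted p = 0.00115). HAUS2 had 9.46, 9.48 and 9.54 in siPCARNEQ arrays and 9.98, 10 and 10.05 in siEGFP arrays, a change of -0.52 (SE 0.06, limma adjusted p = 0.0012). Every siPCARNEQ array lay below every siEGFP array for both genes. The other HAUS2 probe sets were uneven: 228744_at fell by 0.39, and 229208_at and 220071_x_at had changes of -0.08 (SE 0.08) and -0.01 (SE 0.23). HAUS7, an X-linked subunit gene, had 9.01, 8.93 and 8.91 log2 units in siPCARNEQ arrays and 9.24, 9.34 and 9.39 in siEGFP arrays, a change of -0.38 (SE 0.07, limma adjusted p = 0.00745). Averaging arrays 2 and 3 ended the call of HAUS7 (-0.34, adjusted p = 0.12). Its only probe set was 213334_x_at, so HAUS7 was absent from the run without _s_at and _x_at probe sets.

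HAUS3 and HAUS5 did not pass. HAUS3 had 10.42, 10.29 and 10.20 log2 units in siPCARNEQ arrays, against 10.20, 10.30 and 10.21 in siEGFP arrays, and its change of 0.07 had a 95% confidence interval of -0.12 to 0.26 in limma. That interval leaves out falls of the size seen for the 5 fallen subunits. HAUS5 had 9.39, 8.89 and 8.96 in siPCARNEQ arrays and 8.98, 8.86 and 8.53 in siEGFP arrays, with an interval of -0.10 to 0.67. Its probe sets disagreed: 213053_at fell by 0.46 (limma adjusted p = 0.00568 over probe sets) and 213054_at rose by 0.64 (adjusted p = 0.00801), so HAUS5 has no settled direction here. In human augmin HAUS2, HAUS6, HAUS7 and HAUS8 form a subcomplex that binds microtubules, and HAUS1, HAUS3, HAUS4 and HAUS5 form the other. HAUS2, HAUS6, HAUS7 and HAUS8 all fell, while in the other subcomplex HAUS1 fell, HAUS3 and HAUS5 did not pass and HAUS4 was not analysed here. This grouping was chosen after the values were seen.

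**Figure D2:**
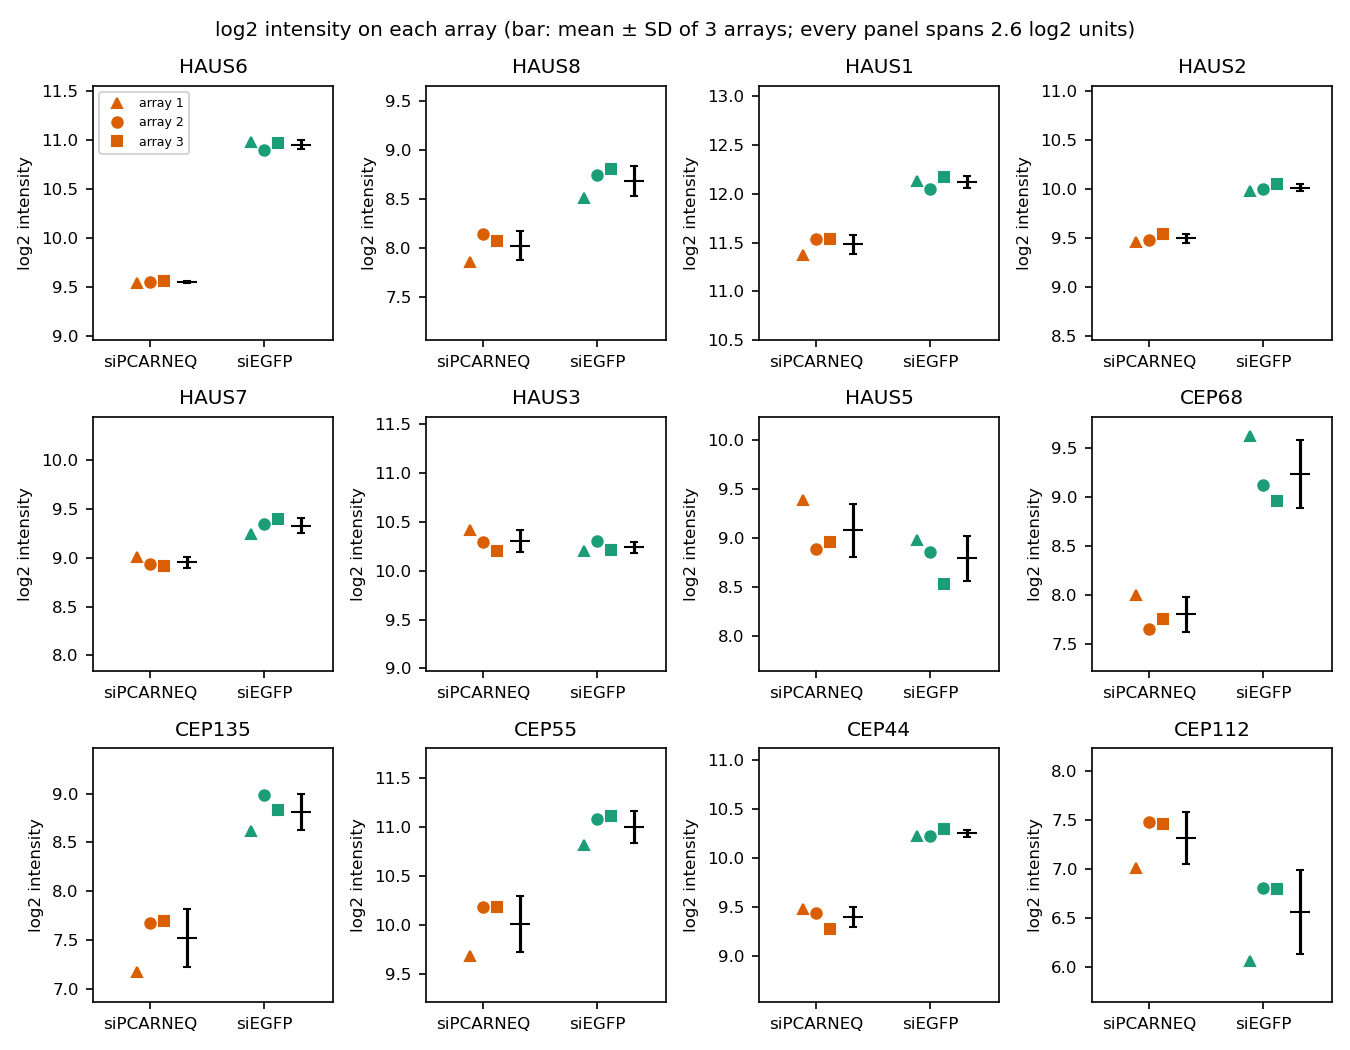
Log2 intensity of the 7 HAUS genes and of CEP68, CEP135, CEP55, CEP44 and CEP112 on each array, siPCARNEQ on the left and siEGFP on the right of each panel. Symbols mark arrays 1 to 3 and black bars the mean ± SD (n = 3), and the groups overlap for HAUS3 and HAUS5 and for none of the other genes shown.

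Among CEP genes of centriole assembly and duplication, 8 of 12 fell and 0 rose (limma, also 0 before adjustment at p below 0.05), with a median log2 change of -0.42, where 12.3% of all genes fell. With arrays 2 and 3 averaged only CEP44 and CEP135 of these 12 fell, where 5.26% of all genes did. CEP135 is a protein of the cartwheel on which a new centriole is built. Its values were 7.18, 7.68 and 7.70 log2 units in siPCARNEQ arrays and 8.62, 8.98 and 8.83 in siEGFP arrays. The groups did not overlap, and array 1 was the lowest in each. The change was -1.29 (SE 0.16, limma adjusted p = 0.00117), and the other CEP135 probe set, 207286_at, fell by 0.60 below the array median.

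CEP44 acts where a new centriole becomes able to organise a centrosome. It had 9.48, 9.44 and 9.28 log2 units in siPCARNEQ arrays and 10.23, 10.23 and 10.30 in siEGFP arrays, a change of -0.85 (SE 0.08, limma adjusted p = 0.000344). Its 3 probe sets all fell, with changes of -0.85, -0.94 and -0.95, the last of them below the array median. CEP97, which caps the distal end of the centriole with CCP110, had 9.53, 9.26 and 9.06 in siPCARNEQ arrays and 9.88, 9.96 and 9.88 in siEGFP arrays, a change of -0.62 (SE 0.12, limma adjusted p = 0.00757). Its fall was 0.35 in array 1 and 0.76 in arrays 2 and 3, and its probe sets all fell, with changes of -0.65 to -0.59.

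The proteins that bring PLK4, the kinase that starts centriole copying, to the centriole had smaller falls on their brightest probe sets. CEP63 had 9.99, 10.04 and 9.97 log2 units in siPCARNEQ arrays and 10.40, 10.42 and 10.44 in siEGFP arrays, a change of -0.41 (SE 0.06, limma adjusted p = 0.00269). Its partner CEP152 had a change of -0.37 (SE 0.11, adjusted p = 0.0463), and CEP192, which also recruits pericentriolar material, one of -0.44 (SE 0.13, adjusted p = 0.0441). For CEP63 the groups were well apart on every array, while CEP152 and CEP192 passed narrowly. Of the other CEP63 probe sets, 222151_s_at fell by 0.70 (SE 0.13), and 233650_at, below the array median, had a change of -0.21 (SE 0.12). CEP152 passed in 1 and CEP192 in 2 of the 6 fits that left out 1 array, with adjusted p of up to 0.158 and 0.148. CEP120, which works in centriole elongation, had 10.18, 10.18 and 10.16 in siPCARNEQ arrays and 10.61, 10.55 and 10.63 in siEGFP arrays, a change of -0.42 (SE 0.06, limma adjusted p = 0.00245). CEP295, which acts as a daughter centriole matures, changed by -0.46 (SE 0.11, adjusted p = 0.0162), by -0.21 in array 1 and -0.58 in arrays 2 and 3. It did not pass without siPCARNEQ array 2 or 3 or siEGFP array 2 or 3 (adjusted p of up to 0.0684), nor with its 4 probe sets averaged (-0.24, adjusted p = 0.348). CEP152 did not pass with its probe sets averaged either (-0.19, adjusted p = 0.0661).

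CEP57, CEP57L1, CEP76 and CEP85 did not pass, with changes of -0.32, 0.15, -0.06 and -0.41. CEP76 restrains centriole copying, and its interval of -0.28 to 0.15 leaves out the falls of CEP97, CEP44 and CEP135. CEP85 had 8.30 in siPCARNEQ array 1 and 8.99 and 9.0 in the other siPCARNEQ arrays, against 8.97, 9.28 and 9.27 in siEGFP arrays, so the groups overlapped and the interval was wide (-0.87 to 0.05).

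CEP68, part of the linker that ties the centrioles together, had the largest fall of all CEP genes. It had 8.0, 7.65 and 7.76 log2 units in siPCARNEQ arrays, against 9.63, 9.12 and 8.96 in siEGFP arrays. Array 1 was the highest in each group, the reverse of CEP135, and the groups did not overlap. The change was -1.43 (SE 0.18, limma adjusted p = 0.00117), which left 37.0% of the siEGFP level. Probe sets 212675_s_at and 207971_s_at of CEP68 fell as well, with changes of -1.64 and -0.84, whereas 1559159_at and 239442_at, both below the array median, had changes of -0.06 and -0.05. CEP250, which anchors the linker to the centriole, had 8.20, 7.98 and 7.96 in siPCARNEQ arrays and 8.27, 8.34 and 8.28 in siEGFP arrays. Its change of -0.25 (SE 0.09, limma adjusted p = 0.0723) did not pass with all arrays and passed with array 1 of both groups left out.

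CEP55 recruits the proteins that cut the bridge between daughter cells at the midbody. Its single probe set had 9.68, 10.18 and 10.18 log2 units in siPCARNEQ arrays and 10.82, 11.08 and 11.12 in siEGFP arrays. The groups were apart on every array, with array 1 the lowest in both. The change was -1.0 (SE 0.15, limma adjusted p = 0.00288), or 50.2% of the siEGFP level, and -0.83 without siPCARNEQ array 1.

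Of 4 CEP genes of the centriolar satellites and the ciliary transition zone, 3 fell and 0 rose (limma, also 0 before adjustment at p below 0.05), where 12.3% of all genes fell. Only CEP20 of these fell with arrays 2 and 3 averaged, where 5.26% of all genes did. CEP20, a satellite protein, had 11.60, 11.63 and 11.60 log2 units in siPCARNEQ arrays and 12.09, 12.21 and 12.15 in siEGFP arrays. The spread within a group was small beside the change of -0.54 (SE 0.07, limma adjusted p = 0.00105). The other CEP20 probe set, 225088_at, had a less precise change of -1.15 (SE 0.41) that did not pass. CEP290, a gatekeeper of the cilium, changed by -0.43 (SE 0.11, adjusted p = 0.0241) and CEP72, a satellite protein, by -0.27 (SE 0.08, adjusted p = 0.0481). CEP72 did not pass in any of the 6 fits that left out 1 array (adjusted p = 0.0641 to 0.17) nor with array 1 of both groups left out (0.0851). CEP290 passed in 1 of those 6 fits, the one without siPCARNEQ array 1, and its probe set outside the _s_at and _x_at classes, 1556850_at, had a change of 0.04 at a mean of 5.27, below the array median. Its 3 probe sets averaged did not pass (-0.30, adjusted p = 0.113). CEP131, another satellite protein, had a change of 0.17 (SE 0.12) that did not pass.

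The CEP genes of the appendages and the cilium moved both ways: of 11 measured, 4 fell, 3 rose and 4 did not pass, with a median log2 change of 0.12, where 12.3% of all genes fell and 15.2% rose. With arrays 2 and 3 averaged CEP43 alone fell and none rose, where 5.26% of all genes fell and 6.05% rose. CEP128, CEP78 and CEP89 no longer passed there (limma adjusted p = 0.0595, 0.0952 and 0.224). CEP128, a protein of the subdistal appendages, had 7.84, 8.29 and 8.23 log2 units in siPCARNEQ arrays and 8.68, 8.98 and 9.09 in siEGFP arrays, a change of -0.80 (SE 0.15, limma adjusted p = 0.00741). CEP43, also known as FOP, had 9.57, 9.88 and 9.86 in siPCARNEQ arrays and 10.36, 10.46 and 10.50 in siEGFP arrays, a change of -0.67 (SE 0.10, limma adjusted p = 0.00274). Both lay lower on every siPCARNEQ array than on any siEGFP array. Of the 5 probe sets of CEP43, 1568678_s_at and 205588_s_at fell, while the second brightest, 214124_x_at, had a change of 0.29 (SE 0.10) and the others changes of -0.02 and 0.00 below the array median. Averaged over all 5 the gene did not pass (-0.23, adjusted p = 0.0772). CEP78, which acts at the distal centriole, changed by -0.42 (SE 0.08, limma adjusted p = 0.00738), and its other probe sets fell too, with changes of -0.95 and -0.89. CEP89, of the distal appendages, changed by -0.27 (SE 0.08, adjusted p = 0.0342) and passed in 1 of the 6 fits that left out 1 array, with an adjusted p of up to 0.132, and not with its 6 probe sets averaged (-0.12, adjusted p = 0.217).

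CEP164, the distal appendage protein that brings the kinase TTBK2 to the centriole, had 9.86, 9.87 and 9.86 log2 units in siPCARNEQ arrays, against 9.34, 9.58 and 9.62 in siEGFP arrays. The siPCARNEQ values were level, and siEGFP array 1 was the lowest of all. The change was 0.35 (SE 0.09, limma adjusted p = 0.0225), and the other CEP164 probe sets had changes of 0.16 and -0.19. CEP19, which works in early ciliogenesis, had 9.06, 9.14 and 9.08 in siPCARNEQ arrays and 8.78, 8.86 and 8.84 in siEGFP arrays, a change of 0.27 (SE 0.06, limma adjusted p = 0.0197), and its other probe set rose by 0.29. CEP126 changed by 0.40 (SE 0.11, adjusted p = 0.0384), by 0.11 in array 1 and 0.55 in arrays 2 and 3, with both group means below the array median. CEP112, in no role group here, had 7.01, 7.48 and 7.46 in siPCARNEQ arrays and 6.06, 6.81 and 6.80 in siEGFP arrays. Its change of 0.76 (SE 0.23, limma adjusted p = 0.0433) was the largest rise and the least precise, with the siEGFP mean below the array median. Averaging arrays 2 and 3 ended all 4 rises (adjusted p = 0.118 to 0.237), and each was lost in 3 or more of the 6 fits that left out 1 array. With the probe sets of a gene averaged, CEP164 and CEP112 did not pass either (0.11 and 0.28, adjusted p = 0.203 and 0.0666). CEP350, a partner of CEP19, had 10.57, 10.70 and 10.62 in siPCARNEQ arrays and 10.09, 10.38 and 10.44 in siEGFP arrays, and its change of 0.33 (SE 0.10, limma adjusted p = 0.0544) did not pass although the groups did not overlap. CEP41, CEP162 and CEP170B had changes of 0.12, 0.16 and 0.09 that did not pass.

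The remaining CEP genes did not pass. CEP15, CEP70, CEP85L and CEP95, which were put in no role group, had changes of -0.14, 0.13, 0.01 and -0.09. The non-coding CEP83-DT, CEP72-DT and CEP192P1 had changes of -0.41, 0.14 and -0.04 and all lay below the array median. CEP83-DT had 5.37 in siPCARNEQ array 1 and 6.18 and 6.22 in the other siPCARNEQ arrays, against 6.21, 6.28 and 6.52 in siEGFP arrays, so that its difference rested mainly on array 1.

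**Figure D3:**
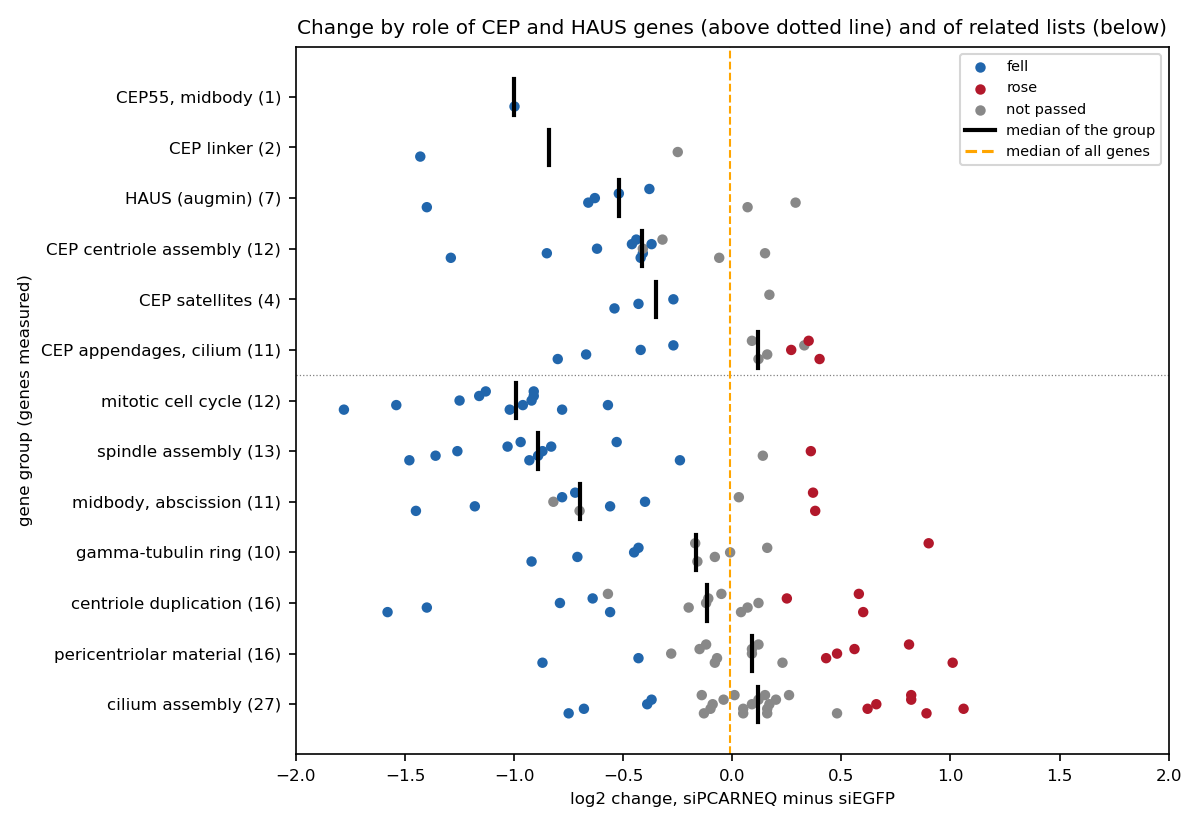
Log2 change (siPCARNEQ minus siEGFP) of HAUS and CEP genes by role, above the dotted line, and of 7 related gene lists, below it, with the number of genes measured in brackets. Black bars are group medians, from -1.0 for CEP55 to 0.12 for CEP genes of the appendages and cilium, the dashed line is the median of all genes (-0.01), and 8 CEP genes outside these roles are not drawn.

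Of all 45 members, 39 had the same sign in array 1 and in arrays 2 and 3, as did 14695 of all 19775 genes. The 26 members that passed were among the 39, and the groups did not overlap for any of the 26. Groups that do not overlap must have the same sign in both, and a call on the same arrays favours such genes. For the called members, neither trait is thus separate support. Groups with siPCARNEQ lower on every array were found for 5 of 7 HAUS genes and 20 of 38 CEP genes, against 21.7% of all genes, and with siPCARNEQ higher for 0 HAUS genes and 6 CEP genes, against 22.3% of all genes. The median over CEP genes was -0.22 in array 1 and -0.23 in arrays 2 and 3, and over HAUS genes -0.51 and -0.52. With each array left out in turn, 16 of the 26 passed in every fit, and with arrays 2 and 3 averaged 10 did. Over all genes, 2438 falls and 3007 rises became 1040 and 1196 with arrays 2 and 3 averaged. The share of all called genes that passed in every leave-out fit was not counted here. HAUS1, HAUS2, HAUS6, HAUS8, CEP20, CEP44, CEP55 and CEP135 passed in the same direction under every alternative run. HAUS8 did so narrowly with arrays 2 and 3 averaged (limma adjusted p = 0.049). HAUS2 did so with a smaller change once its probe sets were averaged (-0.25, adjusted p = 0.0398).

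**Figure D4:**
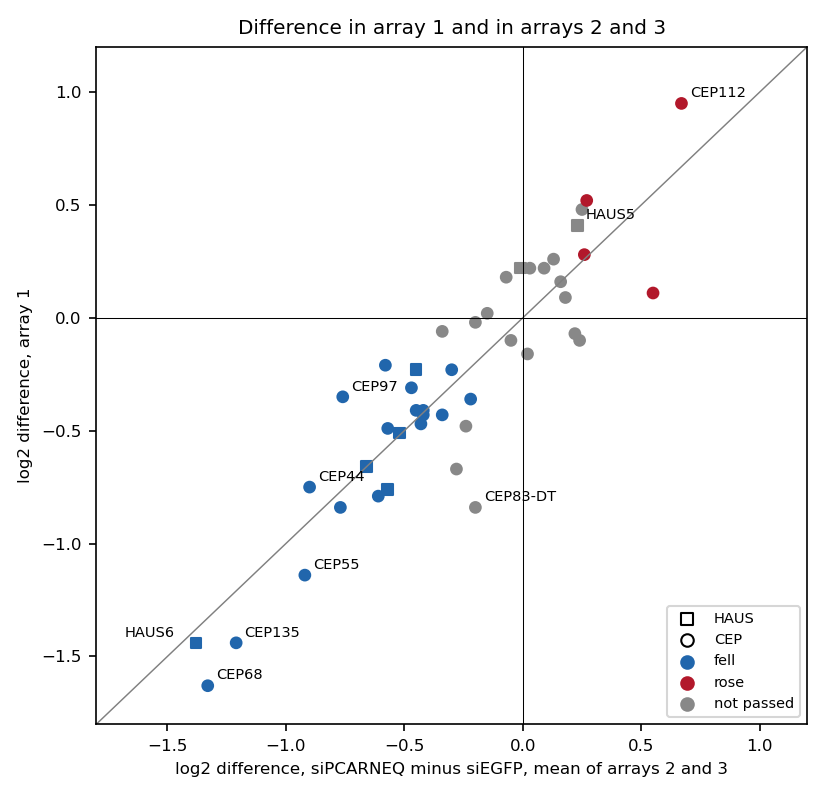
Log2 difference (siPCARNEQ minus siEGFP) in array 1 on the vertical axis and in the mean of arrays 2 and 3 on the horizontal axis for the 45 genes. Squares are HAUS genes, circles CEP genes, colours give the call with all 6 arrays, and the grey line marks equal differences. Of the 45 points, 39 lie in the quadrants of equal sign, where 14695 of all 19775 genes had equal signs.

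Probe sets of a gene can read different transcripts or differ in quality. The 45 genes had 126 probe sets of their own, of which 37 fell and 7 rose, where 8.61% and 9.92% of all probe sets did. In 27 of the 34 genes with over 1 probe set, the second brightest had the sign of the brightest. The same share over all genes was not counted here. Of the 16 fallen genes with over 1 probe set, 10 had a second one that fell: HAUS2, HAUS6, CEP43, CEP44, CEP63, CEP68, CEP78, CEP97, CEP128 and CEP135. That share was not counted over all fallen genes either. CEP70 and HAUS5 had probe sets called in opposite directions. For CEP70, 219036_at and 238154_at rose by 0.52 and 0.69 and 1554488_at fell by 0.67, while its brightest had a change of 0.13 (SE 0.19), so CEP70 too has no settled direction.

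**Figure D5:**
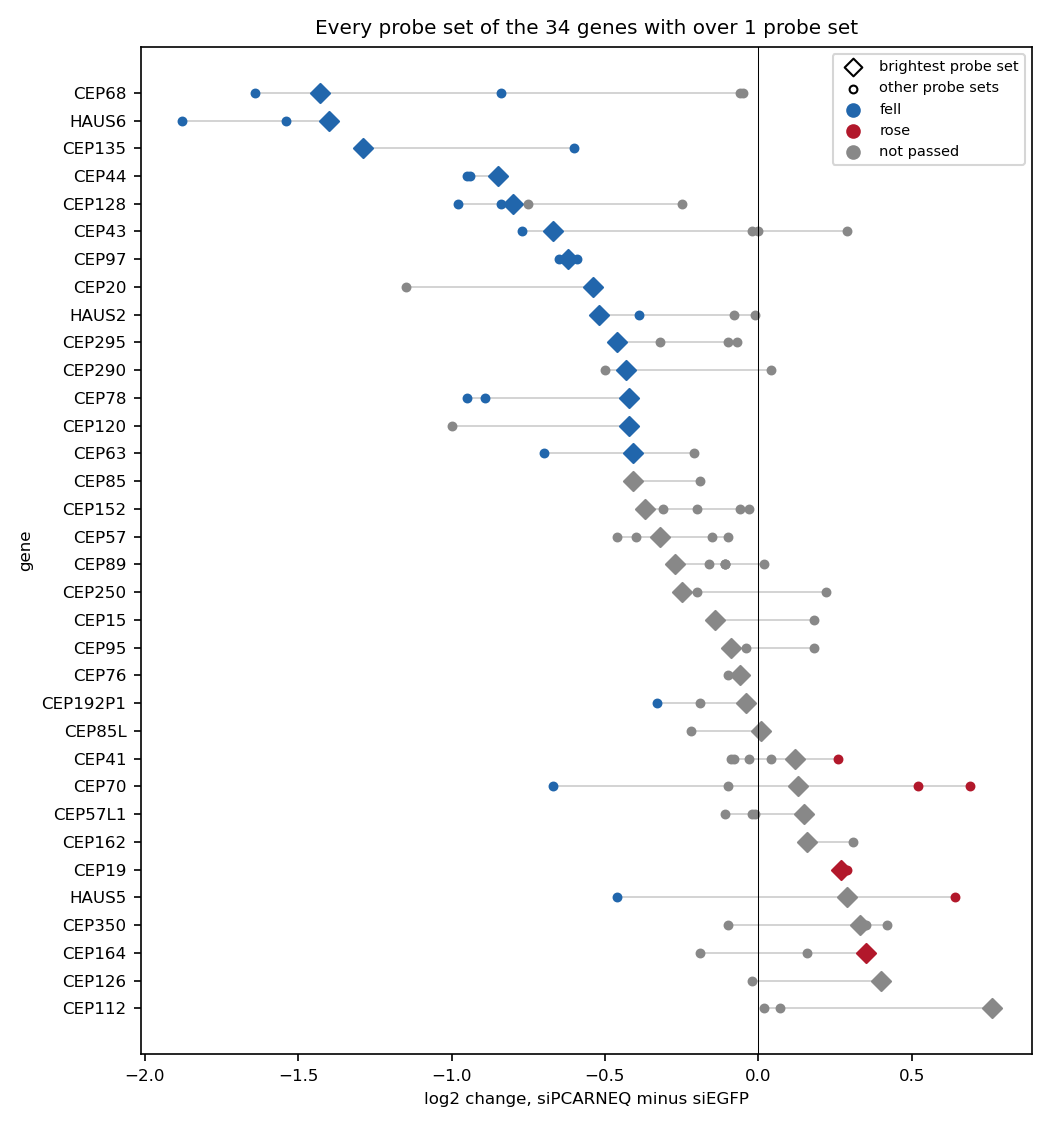
Log2 change (siPCARNEQ minus siEGFP) of every probe set of the 34 genes with over 1 probe set. Diamonds are the brightest probe sets and dots the others, coloured by the limma call over all probe sets, and in 27 of 34 genes the 2 brightest share their sign.

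Promoters of genes that peak in mitosis often hold the CHR element, bound by the MuvB complexes, and those of genes that switch on at the start of S phase often hold an E2F site. The windows used run from 250 bases before to 50 after each start site (RefSeq, GRCh38.p14), and 40 of the 45 genes had at least 1. CEP15, CEP78, CEP170B, CEP192P1 and CEP250 were not matched. On both strands, CHR (TTTGAA or TTCGAA) was found for 11 of 21 fallen members, 1 of 4 risen members and 4 of 15 that did not pass, against 17.2% of all 15384 tested genes with a window and 18.7% of all fallen ones. E2F (TTTGGCGC, TTTCGCGC, TTTCCCGC or TTTGCCGC) was found for 5 of 21, 1 of 4 and 2 of 15, against 5.36% of tested genes and 8.18% of fallen ones. The CCAAT box (CCAAT) was found for 9 of 21, 2 of 4 and 7 of 15, against 41.7% and 44.1%. Over all 35116 windows the shares were 16.4% for CHR, 3.31% for E2F and 34.6% for CCAAT. A match is a match of letters and does not show that a factor binds there. Of the fallen HAUS genes only HAUS8 held CHR letters. HAUS7 held E2F and CCAAT letters, and HAUS1, HAUS2 and HAUS6 held none of the 3 motifs. The stretches below run from 150 bases before to 30 after the start. They are given for 4 fallen members picked for CHR letters near the start, for HAUS6 and for the risen CEP164. The risen CEP112, which held CHR and E2F letters, is not shown. Capitals mark CHR, E2F or CCAAT letters on either strand, and each stretch reads 5' to 3' on the gene's own strand.
HAUS6, chr9:19102875-19103054, minus strand: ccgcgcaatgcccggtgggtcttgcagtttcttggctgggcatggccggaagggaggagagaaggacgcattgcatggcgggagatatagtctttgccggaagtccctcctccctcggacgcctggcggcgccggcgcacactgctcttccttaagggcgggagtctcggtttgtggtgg
HAUS8, chr19:17075423-17075602, minus strand: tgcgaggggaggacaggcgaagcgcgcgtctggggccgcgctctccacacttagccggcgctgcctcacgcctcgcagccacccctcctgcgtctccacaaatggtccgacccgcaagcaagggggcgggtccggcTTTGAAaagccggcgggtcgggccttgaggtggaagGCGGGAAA
CEP135, chr4:55948795-55948974, plus strand: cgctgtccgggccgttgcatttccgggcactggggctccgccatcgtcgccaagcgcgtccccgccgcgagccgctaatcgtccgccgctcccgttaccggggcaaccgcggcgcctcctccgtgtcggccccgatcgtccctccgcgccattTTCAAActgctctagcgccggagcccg
CEP55, chr10:93496462-93496641, plus strand: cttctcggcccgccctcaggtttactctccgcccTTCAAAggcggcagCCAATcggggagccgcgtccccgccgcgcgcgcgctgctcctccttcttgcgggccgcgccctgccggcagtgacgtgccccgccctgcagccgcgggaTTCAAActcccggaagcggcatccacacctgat
CEP44, chr4:174283761-174283940, plus strand: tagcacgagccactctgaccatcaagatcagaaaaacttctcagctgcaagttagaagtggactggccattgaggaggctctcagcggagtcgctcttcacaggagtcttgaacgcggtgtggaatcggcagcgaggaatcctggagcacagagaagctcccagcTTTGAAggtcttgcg
CEP164, chr11:117327704-117327883, plus strand: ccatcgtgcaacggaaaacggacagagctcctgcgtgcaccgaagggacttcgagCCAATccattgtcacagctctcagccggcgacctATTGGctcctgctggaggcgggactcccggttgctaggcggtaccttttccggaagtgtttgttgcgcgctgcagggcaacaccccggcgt
HAUS8 held CHR letters starting 14 bases before the start shown and E2F letters starting at base 23 after it. The window of the other HAUS8 start, not shown, held none of the 3 motifs. CEP55 held CHR letters at 116 and 3 bases before the start with a CCAAT box at 102 bases before it. In CEP135 and CEP44 the CHR letters began at bases 4 and 16 after the start. CEP164 held CCAAT letters at 95 and 61 bases before the start and no CHR or E2F letters.

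Falls were also frequent among mitotic genes around these families, where 12.3% of all genes fell and 15.2% rose. All 12 genes of the mitotic cell cycle list fell, with a median log2 change of -0.99, and 11 of 13 spindle assembly genes fell and 1 rose (NUMA1), with a median of -0.89. NUF2, of the kinetochore, had a change of -1.54 (SE 0.20) and the small GTPase RAN, whose gradient drives spindle assembly, one of -1.48 (SE 0.20). RCC1, the exchange factor for RAN, changed by -0.89 (SE 0.06), the spindle kinesin KIF15 by -0.93 (SE 0.12) and the spindle kinase AURKA by -0.83 (SE 0.11). BUB1B, TOP2A and NDC80 changed by -1.25, -0.92 and -0.96. Of 11 midbody and abscission genes, 6 fell and 2 rose. KIF23, a kinesin of the central spindle, fell by 1.45 and VPS4B, an ATPase of the cutting machinery, by 1.18. CHMP4B, a subunit of its filaments, fell by 0.40, while TSG101, a partner of CEP55, rose by 0.37. With arrays 2 and 3 averaged, 7 mitotic, 4 spindle and 2 midbody genes fell, against 5.26% of all genes.

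The partners of augmin and of centriole copying were mixed. Of 10 genes of the gamma-tubulin ring complex and its adaptors, 4 fell (40.0%) and 1 rose, with a median of -0.17, where 12.3% of all genes fell and 15.2% rose. NEDD1, which links the ring complex to augmin, had a change of -0.43 (SE 0.08, limma adjusted p = 0.0077), TUBGCP4 one of -0.92 (SE 0.12) and MZT1 one of -0.71 (SE 0.08). TUBG2, the minor gamma-tubulin gene, rose by 0.90 (SE 0.07). In the centriole duplication list 5 of 16 fell (31.2%) and 3 rose (18.8%, near the share of all genes). The risen genes were SPICE1, TUBE1 and CETN2, with changes of 0.58, 0.60 and 0.25. The 4 genes with the smallest p were among the falls. PLK4 changed by -1.58 (SE 0.25), the cartwheel protein SASS6 by -1.40 (SE 0.15) and their partner STIL by -0.56 (SE 0.10). CCP110, which works with CEP97, changed by -0.79 (SE 0.09). With arrays 2 and 3 averaged, 2 of these ring complex genes and 3 of these duplication genes fell, against 5.26% of all genes.

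Genes of the pericentriolar material, the satellites and the cilium fell about as often as all genes did (12.3%). Of 16 genes of the pericentriolar material and satellites, 2 fell (12.5%) and 5 rose (31.2%, against 15.2% of all genes), with a median of 0.09. NINL and NIN, which anchor microtubules, rose by 1.01 (SE 0.08) and 0.56 (SE 0.08), the scaffold AKAP9 by 0.48 (SE 0.06) and the satellite protein BBS4 by 0.81 (SE 0.08). The 2 fallen genes were LRRCC1 and PCM1, with changes of -0.87 (SE 0.21) and -0.43 (SE 0.11). Of 27 cilium genes, 4 fell (14.8%) and 6 rose (22.2%), with a median of 0.12, and these shares lie near those of all genes. TTBK2, the kinase recruited by CEP164, rose by 0.82 (SE 0.10), and the transport proteins IFT20 and IFT80 rose by 1.06 (SE 0.11) and 0.82 (SE 0.10). KIF3A, a motor of ciliary transport, fell by 0.68 (SE 0.11). The cilium counts were 5 falls and 11 rises with array 1 of both groups left out (18.8% and 22.8% of all genes), and 1 fall and 3 rises once arrays 2 and 3 were averaged (5.26% and 6.05%).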

How the data were processed

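Biotin-labelled cRNA from 6 µg total RNA was hybridised to 6 single-colour Affymetrix arrays, per the labels' protocols. The authors deposited 1 linear intensity per probe set and array (7.35 to 42200, median 130.8 on every array), made with RMA, per the submitters' processing notes, with version, probe file and genome build not given in the sources used here. The arrays share 1 distribution, so a difference in total RNA is out of reach, and the number of arrays limits the precision.

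Log2 was taken with no pseudocount. Of 54675 probe sets, 62 controls were left out, and 41091 of the 54613 others were paired with 1 gene, 1801 with several and 11721 with none listed. RefSeq lacked 54 and changed 0 symbols. The siPCARNEQ minus siEGFP contrast was fitted in limma 3.58.1 (lmFit, then eBayes) under R 4.3.3, without covariates, with Benjamini-Hochberg adjustment over 19775 genes (over probe sets where said) at 0.05, after a test on simulated data. Since no separate cultures are named, the p-values reflect array-to-array spread that may be technical. Tables were built in Python 3.11.15 and figures in matplotlib 3.10.9.

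All HAUS genes and all CEP genes that passed were named, and up to 4 genes with the smallest p from each related list. The risen genes of the spindle assembly and centriole duplication lists were named as well, as were the fallen genes of the pericentriolar material and satellites list. The members, roles and lists were chosen from general knowledge with earlier results of these data known, and no list was tested as a set. Same-numbered arrays deviated together across groups (correlations of 0.47, 0.30 and 0.34 across probe sets), while no label states a batch. The main fit did not pair the arrays, and the replicate number was a block in an alternative run only. Arrays 2 and 3 also correlated across numbers (0.37 for siPCARNEQ 2 with siEGFP 3 and 0.24 for siPCARNEQ 3 with siEGFP 2), so the values set array 1 apart and do not match array 2 with 2 or 3 with 3. Alternatives were the replicate number as a block, each array left out, arrays 2 and 3 averaged, cyclic loess, log2 of the value plus 16, genes below the median left out, all probe sets of a gene averaged, and _s_at and _x_at probe sets left out. After seeing the data, arrays 2 and 3 alone and protein-coding CEP genes alone were added.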

Additional observations from a re-analysis of the deposited data

How the results depend on the processing

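The HAUS counts were stable: 4 or 5 HAUS genes fell and 0 rose under every alternative run (limma, and 0 before adjustment at p below 0.05 with all arrays, with arrays 2 and 3 averaged and with each array left out). Over the same runs 5.26% to 19.4% of all genes fell and 6.05% to 23.4% rose. Without _s_at and _x_at probe sets, 4 of the 6 HAUS genes left fell, as HAUS7 had no other probe set. With arrays 2 and 3 averaged 4 fell, among them HAUS8 narrowly (limma adjusted p = 0.049). The CEP count of 17 falls was 6 with arrays 2 and 3 averaged, where 5.26% of all genes fell. It was 11 of the 33 CEP genes left without _s_at and _x_at probe sets, where 11.1% of all genes fell. With 1 array left out it was 11 to 15, where 8.38% to 14.5% of all genes fell. The CEP count of 4 rises was 0 with arrays 2 and 3 averaged and 8 with arrays 2 and 3 only, against 6.05% and 22.8% of all genes. It was 2 with all probe sets of a gene averaged (14.1% of all genes) and 0 to 5 with 1 array left out (10.3% to 17.4%). Averaging arrays and leaving 1 out lower the number of samples, and the cause of the other shifts was not tested. The CEP median of -0.27 was -0.23 with arrays 2 and 3 only, -0.35 with dim genes left out, -0.19 with all probe sets averaged and -0.14 without _s_at and _x_at probe sets, and -0.29 to -0.18 with 1 array left out. The HAUS median of -0.52 was -0.38 with all probe sets averaged and -0.54 to -0.49 with 1 array left out. CEP290 turned to 0.04 (adjusted p = 0.713) without _s_at and _x_at probe sets, and CEP68 and CEP43 went to -0.06 and -0.02 there, in each case read from probe sets below the array median. With the replicate number as a block, 19 CEP genes fell and 5 rose and 5 HAUS genes fell, where 15.3% of all genes fell and 19.2% rose, and every CEP and HAUS call made without the block held. Cyclic loess lost the calls of CEP192, CEP152 and CEP72 (adjusted p = 0.0528, 0.0512 and 0.0546). Log2 of the value plus 16 changed no call of a named member, and counting only protein-coding CEP genes changed no count.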
